A study of Mus musculus with 4 samples.

Results

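The genes described here are 10 members of the p53 pathway and the BH3-only death genes: Trp53, Trp53inp1, Pmaip1, Bbc3, Cdkn1a, Mdm2, Ccng1, Bax, Bcl2l11 and Bmf. They were chosen by name, with earlier results of these data known. All 10 were found among the 17712 genes of the deposited table. RNA was sequenced from mouse embryo forelimbs in 2 libraries of wild-type and 2 of Shh null embryos, littermates of the Swiss Webster stock. Embryos of both groups were staged at 33 to 35 somites, and the labels give the age as E10.25 in one field and E10.5 in another (embryonic days). No treatment is named for either group. The labels do not describe the Shh allele, do not say whether forelimbs of several embryos were pooled, and do not tie a library to an animal. The design text calls the replicates technical, so a p-value here rests on the spread between libraries that may be technical.

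p53, the product of Trp53, is a transcription factor that is held at a low level by the ubiquitin ligase MDM2 and accumulates when that control is released. Its targets act in cell cycle arrest, in autophagy and in the mitochondrial pathway of apoptosis. BH3-only proteins start that pathway by binding the survival proteins of the BCL2 family or by activating the effectors BAX and BAK. PMAIP1 (NOXA) and BBC3 (PUMA) are the BH3-only proteins best known as p53 targets, whereas BCL2L11 (BIM) and BMF are known for control by growth factor withdrawal, FOXO factors and detachment from the matrix. In the limb bud, apoptosis shapes the anterior and posterior margins and later the tissue between the digits, and more cells are known to die in limb buds that lack Sonic hedgehog.

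Promoter sequences were available from RefSeq (GRCm38.p6) for 8 of the 10 genes, in 14 windows that run from 250 bases before to 50 after an annotated start. Trp53inp1 and Pmaip1 were not matched. The search was for a single decamer of the p53 response element, whose pattern reads the same on both strands, and not for a full element. The decamer was found in 6 of these 14 windows, against 8.36% of the 32851 promoter windows in the table. By gene, 6 of 8 had at least 1 match, against 9.55% of 27025 genes, and Bbc3 and Bcl2l11 had none. The FOXO motif GTAAACA, searched on both strands, was in 3 of the 14 windows (3.65% of all windows), and the GLI motif GACCACC was in 0 of the 14 (2.8% of all windows). Other motifs searched were E2F (0 of the 14, 1.56% of all windows), the CCAAT box (8, 37.4%) and the TATA box (1, 13.6%). A match describes letters in a window and not a bound site. The stretches below are shown because they set the p53 targets beside Bmf, the BH3-only gene that changed most in the RNA. Each is printed on the gene's own strand with 15 bases on either side of the match, capitals mark the decamer, and the number gives the first matched base relative to the start site. None of these stretches overlaps an annotated exon.
Cdkn1a at -51, chr17:29090913-29090952, plus strand: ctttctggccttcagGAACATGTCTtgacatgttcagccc
Cdkn1a at -73, chr17:29090891-29090930, plus strand: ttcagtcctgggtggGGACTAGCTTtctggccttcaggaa
Ccng1 at -185, chr11:40755447-40755486, minus strand: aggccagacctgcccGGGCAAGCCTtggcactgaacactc
Bax at -201, chr7:45467075-45467114, minus strand: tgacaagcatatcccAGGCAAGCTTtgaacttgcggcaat
Mdm2 at -186, chr10:117710920-117710959, minus strand: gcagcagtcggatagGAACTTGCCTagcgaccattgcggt
Trp53 at -75, chr11:69580269-69580308, plus strand: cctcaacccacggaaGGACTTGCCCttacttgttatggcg
Bmf at -213, chr2:118544776-118544815, minus strand: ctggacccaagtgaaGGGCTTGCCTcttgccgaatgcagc
Bmf has 3 annotated starts in the table, and the match lies before only 1 of them. Cdkn1a has a further window at a downstream annotated start, from 29093519 to 29093818, that holds no decamer match. The 2 Cdkn1a matches are numbered from the upstream start only. The 2 Cdkn1a stretches overlap each other.

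The FOXO matches are shown with capitals on the motif or its reverse complement. They are shown because 2 of the 3 lie in front of BH3-only genes that were not called in the RNA. Bcl2l11 and Bbc3 also have windows at other annotated starts, which hold no FOXO match.
Bcl2l11 at -227, chr2:128125796-128125832, plus strand: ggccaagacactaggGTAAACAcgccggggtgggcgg
Bbc3 at -167, chr7:16310079-16310115, plus strand: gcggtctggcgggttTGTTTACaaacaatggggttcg
Mdm2 at -153, chr10:117710890-117710926, minus strand: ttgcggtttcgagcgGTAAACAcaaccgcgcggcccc

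In the RNA, 2 of the 10 genes rose in the Shh null forelimbs, Bmf (1.76-fold) and Trp53inp1 (1.69-fold), and 1 fell, Pmaip1 (1.54-fold). The other 7 were not called, among them Cdkn1a, Mdm2, Ccng1 and Bax, the targets most often used to read p53 activity. Values are CPM, reads relative to the effective library size, and a gene was called at an adjusted p under 0.05 (limma on log2(CPM + 1), Benjamini-Hochberg over 13224 tested genes). Of all tested genes 2.48% were called, 1.24% higher and 1.24% lower. The median log2 fold change was -0.02 over the 10 genes and -0.00048 over all tested genes. The groups did not overlap for 5 of the 10 genes, 2 above and 3 below wild type, and 50.2% of all tested genes did not overlap either, so that count is at the background. The authors' deposited table gives the lowest false discovery rates among the 10 genes to Bmf (2.86e-07), Trp53inp1 (1.34e-06) and Pmaip1 (0.00027), followed by Cdkn1a (0.176).

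**Figure D1:**
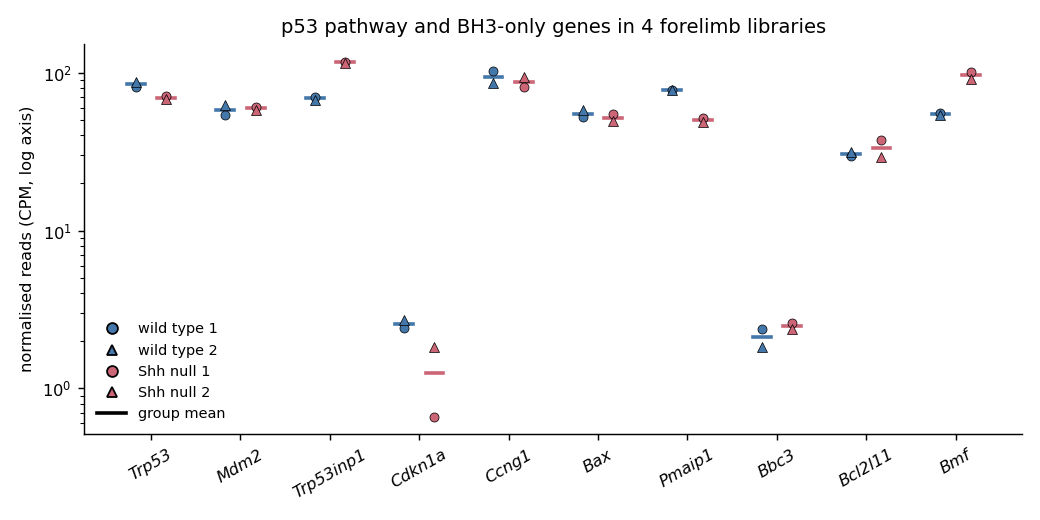
Normalised reads (CPM, log axis) of the 10 genes in each library, with wild type in blue, Shh null in red, circles for library 1, triangles for library 2 and bars for the group mean (n = 2). Trp53inp1 and Bmf lie higher in both Shh null libraries and Pmaip1 lower, while Cdkn1a and Bbc3 are under 3 CPM in all 4 libraries.

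Trp53 itself (chromosome 11, 69580359 to 69591873, mm10) read 81.1 and 87.8 CPM in wild type, against 71.0 and 67.9 CPM in Shh null. The Shh null libraries were both below the wild-type ones, yet the gene was not called (log2 fold change -0.28 ± 0.10 SE, adjusted p = 0.183). The 95% interval of this difference ran from -0.50 to -0.05 before adjustment. Mdm2, which encodes the ligase that degrades p53 and is itself a p53 target, was at 53.6 and 62.2 CPM in wild type and at 60.4 and 58.3 CPM in Shh null. These last values lay between those of wild type. The interval for Mdm2 ran from -0.21 to 0.29 on the log2 scale (adjusted p = 0.888).

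Trp53inp1 encodes a nuclear protein that is induced by p53, promotes p53 activity and also takes part in autophagy (chromosome 4, 11156431 to 11174379). It was measured at 69.8 and 67.5 CPM in wild type and at 117.2 and 115.4 CPM in Shh null. The groups were far apart and the libraries within each group were close. The means of 68.7 ± 1.66 and 116.3 ± 1.32 CPM (SD, n = 2) gave a log2 fold change of 0.75 ± 0.10 (SE, adjusted p = 0.00361), the 59th lowest p of 13224 genes. The log2 values of the 2 libraries of a group differed by 0.05 (wild type) and 0.02 (Shh null). The call ended without Shh null 1 (adjusted p = 0.0748), with the log2 fold change at 0.74. In that fit the calls over all genes also fell, to 15 higher and 41 lower.

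Cdkn1a encodes p21, the cyclin-dependent kinase inhibitor that carries p53-induced arrest (chromosome 17, 29090976 to 29100727). It was at 2.42 and 2.70 CPM in wild type, and at 0.664 CPM in Shh null 1 and 1.83 CPM in Shh null 2. Each Shh null value was lower, but they came from 16 and 40 reads, and their 95% counting intervals (exact Poisson, counting error only) of 0.379 to 1.08 and 1.31 to 2.49 CPM did not overlap. Cdkn1a was not called (log2 fold change -0.71 ± 0.25 SE on the log2(CPM + 1) scale, adjusted p = 0.176). Its difference was larger on scales that add less to low values, 2.05-fold by the ratio of means and -1.04 on the log2 scale in edgeR (adjusted p = 0.223) and in DESeq2 (0.368). Leaving out Shh null 1 gave a log2 fold change of -0.33, and leaving out Shh null 2 one of -1.10, so the size of this difference rests on 1 library. In the annotation 273 exon bases of Cdkn1a are shared with a gene on the opposite strand.

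Ccng1 encodes cyclin G1, a p53 target that acts back on MDM2. It was at 101.9 and 85.7 CPM in wild type and at 80.6 and 94.0 CPM in Shh null. The ranges overlapped and the libraries of each group differed by more than the group means of 93.8 ± 11.4 and 87.3 ± 9.43 CPM (SD, n = 2) did. The log2 fold change was -0.10, with an interval from -0.37 to 0.17 (limma adjusted p = 0.696). Bax encodes the effector that permeabilises the mitochondrial outer membrane. It was at 52.4 and 57.7 CPM in wild type and at 54.4 and 49.3 CPM in Shh null, overlapping again. Its interval ran from -0.33 to 0.16 (limma adjusted p = 0.724), and 192 of its exon bases are shared with a second annotated gene on the same strand.

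**Figure D2:**
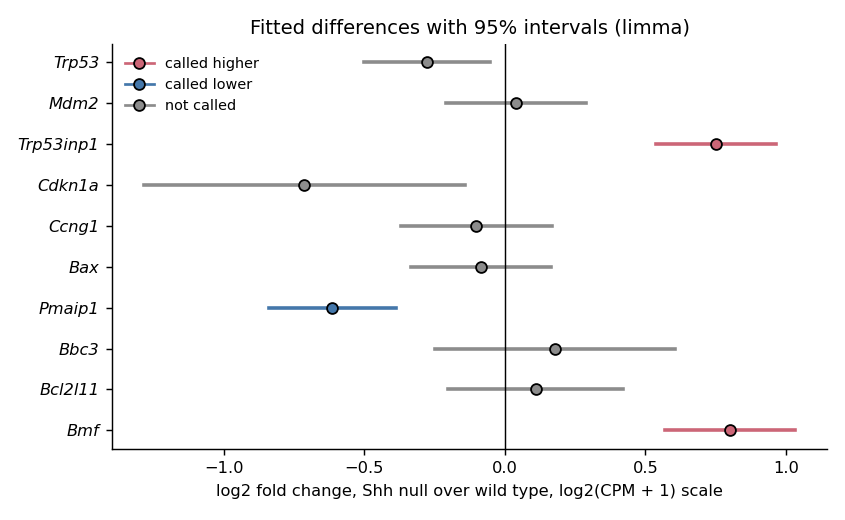
Fitted log2 fold change of each gene, Shh null over wild type on the log2(CPM + 1) scale, with its 95% interval from limma before adjustment. Trp53inp1 and Bmf were called higher and Pmaip1 lower, the intervals of Trp53 and Cdkn1a lie below 0 without a call after adjustment, and the other 5 cross 0.

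Pmaip1 encodes NOXA, a BH3-only protein that binds mainly the survival protein MCL1 (chromosome 18, 66458533 to 66465565). It was measured at 78.1 and 77.2 CPM in wild type and at 51.8 and 49.0 CPM in Shh null. The Shh null libraries were both far below wild type, so Pmaip1, a p53 target, moved the opposite way to Trp53inp1. The means of 77.7 ± 0.599 and 50.4 ± 2.01 CPM (SD, n = 2) gave a log2 fold change of -0.61 ± 0.10 (SE, limma adjusted p = 0.0144). Leaving out either Shh null library ended the call (adjusted p = 0.114 and 0.0951), while the log2 fold change stayed between -0.65 and -0.57 over the 4 fits that left out a library. Bbc3, which encodes PUMA, a BH3-only protein that binds all survival members of the family, was at 2.39 and 1.82 CPM in wild type and at 2.61 and 2.38 CPM in Shh null. The ranges overlapped by a small margin, on 33 to 68 reads per library. A pooled wild-type to Shh null ratio of 0.866 had a 95% exact binomial interval from 0.656 to 1.14, which covers counting error only and not the spread between libraries. Bbc3 was not called (limma adjusted p = 0.661).

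Bmf encodes a BH3-only protein that is held at the actin motor complexes and released by loss of attachment (chromosome 2, 118528757 to 118549687). It was measured at 55.9 and 53.8 CPM in wild type and at 101.4 and 91.4 CPM in Shh null. Both Shh null values were far above both wild-type values. The means of 54.8 ± 1.45 and 96.4 ± 7.01 CPM (SD, n = 2) gave a log2 fold change of 0.80 ± 0.10 (SE, limma adjusted p = 0.0039). Leaving out Shh null 1 ended the call (adjusted p = 0.0897, log2 fold change 0.73). Bcl2l11, which encodes BIM, lies on the same chromosome (128126038 to 128162547) and was at 29.6 and 31.3 CPM in wild type, 37.3 CPM in Shh null 1 and 29.0 CPM in Shh null 2. The Shh null values enclosed those of wild type, and the sign of the log2 fold change of 0.11 turned to -0.07 without Shh null 1. Its interval ran from -0.20 to 0.42 (limma adjusted p = 0.717).

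Levels of different genes can be compared only per length, and for this the CPM were divided by the annotated exon length in kilobases (kb). This length counts every exon of a gene, so it overstates the length of the transcripts in use, by an amount that may differ between genes. The SDs and ranges of levels per kb hold the spread between libraries and no error of the length. Per kb, the 4 BH3-only genes summed to 44.0 and 43.3 CPM per kb in wild type and to 44.1 and 40.1 CPM per kb in Shh null. The sum per kb overlapped between the groups, while its makeup did not. That overlap rests on the annotated lengths, 5.253 kb for Bmf and 2.732 kb for Pmaip1. In CPM, without division by length, the total of the 4 genes was higher in both Shh null libraries than in either wild-type library. Pmaip1 made up 64.9% and 65.3% of the sum per kb in the wild-type libraries, against 43.0% and 44.7% in Shh null. For Bmf these shares were 24.2% and 23.7% (wild type) against 43.7% and 43.4% (Shh null). In both Shh null libraries the 2 genes thus stood at nearly the same level per kb, whereas Pmaip1 was well above Bmf in both wild-type libraries. This near equality depends on the lengths. In CPM, Bmf was at 101.4 and 91.4 in Shh null and Pmaip1 at 51.8 and 49.0. Bcl2l11 held 8.70% ± 0.461 of the sum in wild type and 9.78% ± 1.06 in Shh null, and Bbc3 2.26% ± 0.406 and 2.79% ± 0.00573 (SD, n = 2). These shares follow from the changes of Bmf and Pmaip1 already given and were not tested again.

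**Figure D3:**
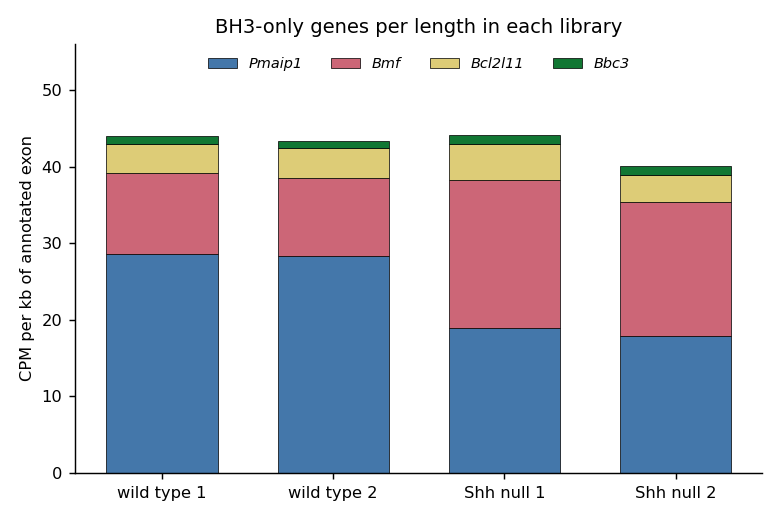
Stacked level of Pmaip1, Bmf, Bcl2l11 and Bbc3 in each library, as CPM per kb of annotated exon. The bars reach between 40.1 and 44.1 CPM per kb in all 4 libraries, with a larger Bmf part and a smaller Pmaip1 part in both Shh null libraries.

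Over all 10 genes, the highest level per kb in wild type was that of Bax (34.9 ± 2.39 CPM per kb, SD, n = 2), followed by Pmaip1 (28.4 ± 0.219) and Ccng1 (26.7 ± 3.25), whose ranges overlapped. Trp53 came next (20.9 ± 1.18), and then Mdm2 (11.4 ± 1.20), Trp53inp1 (10.6 ± 0.257) and Bmf (10.4 ± 0.275), each overlapping the next. Bcl2l11 (3.79 ± 0.155), Bbc3 (0.99 ± 0.189) and Cdkn1a (0.721 ± 0.0553) closed the order. In Shh null, Bax (32.9 ± 2.29 CPM per kb) and Ccng1 (24.9 ± 2.69) led. Pmaip1, Bmf and Trp53inp1 then lay together between 17.4 and 19.3 CPM per kb, with overlapping ranges. Trp53 (17.2 ± 0.551) and Mdm2 (11.7 ± 0.286) followed, and the 3 lowest genes were the same as in wild type. Bmf and Trp53inp1, which lay below Trp53 in each wild-type library, exceeded its mean in Shh null, and the range of Trp53inp1 there did not overlap that of Trp53.

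Other p53 target genes did not move together. Of 38 further targets listed, 37 were in the table and 34 were tested, of which 1 rose, 0 fell and 33 were not called (limma), with a median log2 fold change of 0.02. This share of 2.94% called is near the 2.48% of all tested genes. Before adjustment, 5 were higher and 4 lower with a limma p under 0.05. Such p-values were common over all tested genes, since Ddb2 of this list, at a limma p of 0.0485, had rank 2403 of 13224. edgeR also called 1 higher and 0 lower, and DESeq2 called 1 higher and 1 lower. The target that DESeq2 called lower was Aen (DESeq2 adjusted p = 0.0429, limma adjusted p = 0.0718). The gene called higher was Rprm, which encodes Reprimo, a p53-induced mediator of arrest in G2. It was at 3.26 and 4.02 CPM in wild type and at 16.3 and 9.24 CPM in Shh null (log2 fold change 1.52 ± 0.24 SE, limma adjusted p = 0.0119). The Shh null values were both higher, though they differed from each other, and the call ended without Shh null 1 (adjusted p = 0.126). Eda2r, an X-linked death receptor gene, was at 4.25 and 4.30 CPM in wild type and at 1.95 and 2.20 CPM in Shh null and was not called (limma adjusted p = 0.0522). It was called lower with quantile normalization (0.0382), with a pseudocount of 4 CPM (0.0455) and with the replicate block (0.0482).

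Among the survival and effector genes of the BCL2 family, Bcl2 fell 1.74-fold. It was measured at 21.7 and 20.6 CPM in wild type and at 11.4 and 12.9 CPM in Shh null (log2 fold change -0.75 ± 0.14 SE, limma adjusted p = 0.0221). Leaving out Shh null 1 (adjusted p = 0.223) or Shh null 2 (0.0806) ended the call, as did dropping the filter on low values (0.0574). BCL2 is a survival protein to which both BIM and BMF bind. Mcl1, which encodes the main survival partner of NOXA, was at 331.5 and 334.7 CPM in wild type and at 259.3 and 250.5 CPM in Shh null. Both Shh null values were lower, and Mcl1 was not called by limma (log2 fold change -0.38 ± 0.09 SE, adjusted p = 0.0672) or edgeR (0.0765) but was by DESeq2 (0.0166). Of the 6 tested genes of this list (10 listed), 1 fell, 0 rose and 5 were not called, with a median of -0.27. Over all tested genes 2.48% were called, and a list of 6 is too small to compare with that share. Before adjustment 0 were higher and 2 lower with a limma p under 0.05, and edgeR and DESeq2 also called 0 higher. The other BH3-only genes tested were Bad, at 11.3 and 12.5 CPM in wild type and 13.5 and 11.7 CPM in Shh null, and Bid, at 12.5 and 12.6 CPM and at 12.4 and 13.3 CPM. The ranges overlapped for Bad and for Bid, neither was called by limma, edgeR or DESeq2, and 0 of the 2 had an unadjusted p under 0.05. Bik and Hrk were below the filter.

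The caspase machinery and the p53 regulators gave no calls. The caspase list of 21 tested genes held the apoptosome, caspases and caspase inhibitors, and also Fadd, Aifm1, Endog, Dffa, Dffb and Parp1. Of these 21 genes, 0 were called by limma, edgeR or DESeq2. Before adjustment 0 were higher and 1 lower with a limma p under 0.05 (median log2 fold change -0.02). The largest difference was that of Cycs, the cytochrome c gene, at 228.0 and 204.0 CPM in wild type and 134.7 and 188.3 CPM in Shh null (adjusted p = 0.156), which was called lower without wild type 2 (0.0262). Endog, a mitochondrial nuclease gene, was at 4.21 and 2.75 CPM and at 2.20 and 2.56 CPM (adjusted p = 0.353). Of 25 tested p53 regulators, 0 were called by limma, edgeR or DESeq2, and 0 had an unadjusted p under 0.05 in limma (median -0.01). The largest differences there were those of Ppp1r13b (log2 fold change 0.28, adjusted p = 0.36), which encodes a p53 cofactor, and the checkpoint kinase gene Chek2 (-0.24, adjusted p = 0.275). With 2.48% called over all genes, 0 calls in lists of this size is near the background. An unadjusted p under 0.05 was far more common than a call, since Chek2, at a limma p of 0.0518, had rank 2497 of 13224.

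Smaller lists were also without calls in limma, edgeR and DESeq2. Over all tested genes limma called 2.48%, so 0 calls in lists this small is near the background. The unadjusted counts below are likewise set against a p under 0.05 that was common over all genes. Of 4 tested CDK inhibitor genes other than Cdkn1a, 0 were called and, before adjustment, 2 were higher with a limma p under 0.05, with a median log2 fold change of 0.31. Cdkn2c (3.26 and 1.10 CPM in wild type, 2.94 and 3.02 CPM in Shh null) overlapped between the groups, and leaving out wild type 1 gave a call (higher, adjusted p = 0.0282). Cdkn2d was at 12.2 and 11.2 CPM and at 14.4 and 16.0 CPM (adjusted p = 0.227). Of 18 tested autophagy genes, the process in which Trp53inp1 also acts, 0 were called and, before adjustment, 1 was lower with a limma p under 0.05 (median 0.03). Map1lc3a (log2 fold change 0.32, adjusted p = 0.31) and Wipi1 (0.30, adjusted p = 0.41) had the largest differences. Of 8 tested transcription factor genes known to induce BH3-only genes, 0 were called and, before adjustment, 1 was lower with a limma p under 0.05 (median -0.08). Foxo1 was at 6.46 and 7.88 CPM in wild type and 4.81 and 5.76 CPM in Shh null (adjusted p = 0.288). Atf4 was at 269.0 and 228.5 CPM and at 195.8 and 194.0 CPM (adjusted p = 0.127), and was called lower without wild type 2 (0.0352).

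**Figure D4:**
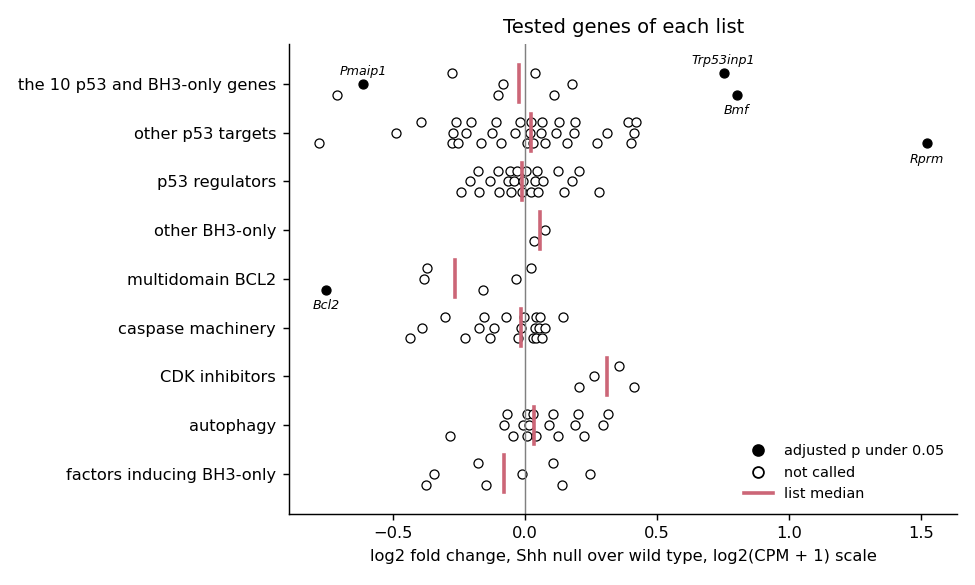
Fitted log2 fold change of every tested gene among the 10 genes and in 8 pathway lists (the hedgehog readouts and the cell type marker lists are not drawn), Shh null over wild type on the log2(CPM + 1) scale, with filled points for genes at an adjusted p under 0.05, open points for the rest and a red bar at the list median. Filled points are Trp53inp1, Bmf and Pmaip1 among the 10 genes, Rprm among the other p53 targets and Bcl2 among the multidomain BCL2 genes, and the medians of the lists drawn lie between -0.27 and 0.31.

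The genes whose 4 values most resembled those of Bmf, by Euclidean distance of centred log2(CPM + 1) values over the 4 libraries among 12123 named genes, were Loxl3 (distance 0.0361), Mapre3 (0.0415) and Agtr2 (0.0491). For Trp53inp1 they were Hkdc1 (0.0072), Frrs1l (0.0475) and Asap3 (0.0729). With 4 libraries such a likeness describes little beyond the size of the difference and the closeness of the replicates.

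The libraries held 18456502 to 29620468 reads. Shh read 11.4 and 7.88 CPM in wild type, 3.15 CPM in Shh null 1 and 2.42 CPM in Shh null 2, and Gli1, Ptch1 and Hhip, which hedgehog signalling induces, were all called lower, as the labels would have it. Of 8 limb mesenchyme markers 4 rose (Prrx1, Prrx2, Twist1 and Lhx9), 1 (Fgf10) fell and 3 were not called, Tbx5 among them, and their summed level was 1118 to 1162 CPM in wild type and 1617 to 1645 CPM in Shh null. The summed level of 11 macrophage markers was 20.4 to 24.9 CPM in wild type and 37.7 to 39.0 CPM in Shh null, with 1 of 9 tested called. Before adjustment, 6 of these 9 were higher and 0 lower with a limma p under 0.05 (median log2 fold change 0.58). The summed level of 7 erythroid markers was 2946 to 11005 CPM in wild type and 3736 to 6343 CPM in Shh null. Endothelial markers summed to 202.3 to 260.5 CPM and 235.4 to 237.9 CPM, surface ectoderm markers to 315.9 to 333.1 CPM and 338.0 to 355.0 CPM, and myogenic markers to 92.2 to 98.9 CPM and 108.9 to 110.3 CPM. In these 3 lists limma called only Fgf8 (lower), and no marker was at 0 in all 4 libraries. The 5 sex-linked genes tested were all called (Xist higher, 4 Y-linked genes lower), so genotype and the sex makeup of the libraries cannot be told apart. This holds for the 10 genes too, although none of them lies on a sex chromosome. The part of these differences in the changes of Bmf, Trp53inp1 and Pmaip1 was not tested, and in whole forelimbs a change in the share of a cell type cannot be told apart from a change in RNA per cell.

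Across processing choices, the signs of Bmf, Trp53inp1 and Pmaip1 held in all 14 alternative fits of each, with log2 fold changes of 0.73 to 0.87, 0.73 to 0.82 and -0.65 to -0.57. Trp53, Cdkn1a, Ccng1, Bax, Mdm2, Bbc3 and Bcl2l11 were called in none of the fits that tested them.

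**Figure D5:**
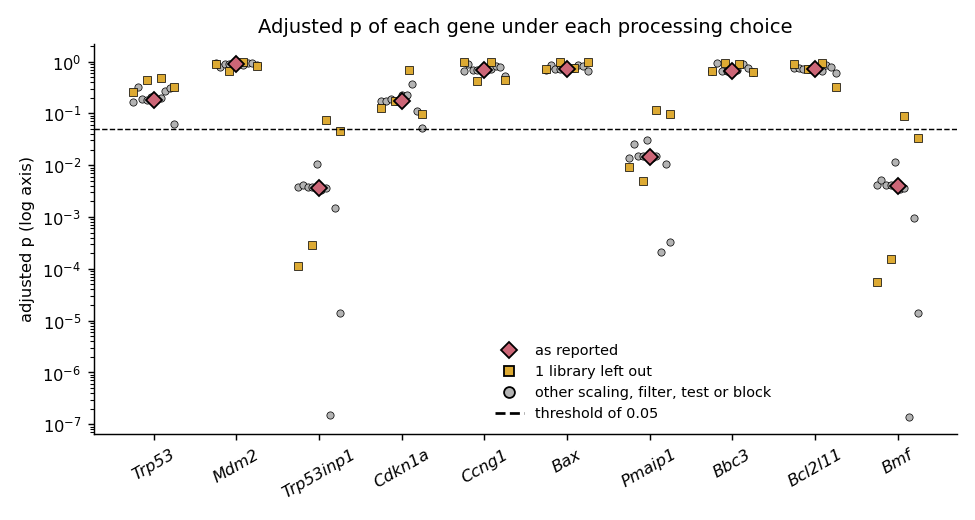
Adjusted p (log axis) of each of the 10 genes as reported, with 1 library left out, and under another scaling, filter, test or replicate block, with a dashed line at 0.05. Points of Trp53inp1, Pmaip1 and Bmf cross the line only where a Shh null library was left out, and no point of the other 7 genes lies below it.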

How the data were processed

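The deposited signal is one normalized value per gene and library. The submitters' processing notes list HTSeq 0.5.4p5, edgeR 3.4.2, TopHat2 2.0.9, SAMtools and build mm10. What each did, and which annotation and strand option were used, is not given in the sources used here. Overlapping genes may therefore share reads. Dividing each deposited column by its smallest positive value gave whole reads (100% within 0.001 reads), and TMM factors recomputed from them matched the deposited scale (difference 0%), so the values are CPM. The authors' second table holds log2 fold changes as deposited, with p-values by the authors.

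Genes with at least 1 CPM in at least 2 libraries (13224; 4488 below) were fitted as log2(CPM + 1) with limma 3.58.1 (lmFit, eBayes with trend; R 4.3.3), genotype as the only term and Benjamini-Hochberg adjustment. Folds are ratios of mean CPM, and fitted log2 changes understate low genes. With 2 libraries per group, the smallest two-sided p of an exact permutation test is 0.333. Alternatives were edgeR 4.0.16 and DESeq2 1.42.0 on the recovered reads, median-ratio and quantile scaling, pseudocounts of 0.25 and 4 CPM, no filter or 5 CPM, a replicate block and leaving out each library. The steps were tested on simulated data. Coordinates and exon lengths are from GENCODE M21 (GRCm38), promoters from RefSeq.

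The 10 genes, the lists and the rule for named genes were chosen with earlier results of these data known. The rule named the 10 genes, 4 hedgehog readouts, per list up to 4 called genes with the largest change (or the 2 largest differences where fewer than 2 were called), and the 3 nearest patterns of the 2 genes with the largest limma change on the log2(CPM + 1) scale (Bmf and Trp53inp1; with a pseudocount of 0.25 CPM, in edgeR and in DESeq2 that of Cdkn1a was larger). 3 list genes were found under older names, and Gdf15, Cdkn2a and Hba-a1 were not matched.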

Additional observations from a re-analysis of the deposited data

How the results depend on the processing

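The counts of the 10 genes called (2 higher, 1 lower) held under every other scaling, pseudocount, filter, test and block; without one library they ranged from 0 to 2 higher and from 0 to 1 lower. Over all genes (164 higher, 164 lower), counts with a library left out ranged from 15 to 386 higher and from 41 to 416 lower, were 79 and 91 without a filter, and 253 and 273 in DESeq2. The replicate block gave 220 higher and 176 lower; the labels do not say that a number pairs libraries, and same-numbered libraries deviated at r = -0.20. A crossed pairing, chosen after seeing the data, gave 641 and 745 calls. The fits without a Shh null library assume that the remaining one varies like the wild type, and the cause of their fewer calls was not tested. Besides the changes given above, Mcl1 (adjusted p = 0.00435), Cycs (0.00399), Atf4 (0.0143) and Eda2r (0.0135) were called lower with the crossed pairing, and the Shh and Hhip calls ended without Shh null 1 (0.0693 and 0.0518), that of Shh also without Shh null 2 (0.0767). With 16 to 69 reads per library, depth limits Cdkn1a and Bbc3, both of which fall below the 5 CPM filter and have no value there.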
